A study of Mus musculus with 4 samples.

Results

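The comparison set the array of LPS-treated RAW264.7 cells that lack Mfp2 against the array of LPS-treated wild-type RAW264.7 cells. It used 2 of the 4 arrays of the study, assigned by their labels, and the remaining 2, of the same genotypes untreated, served as the background. The comparison itself was chosen with earlier results of these data known. RAW264.7 is an established mouse macrophage-like line, and LPS is lipopolysaccharide, a component of the outer membrane of Gram-negative bacteria. Wild-type and Mfp2-/- cells were each profiled without treatment and after LPS, which makes 4 groups. Every group was 1 array of total RNA, so differences cannot be set against a spread between replicates, and p-values are not printed. Genotype, culture and position on the slide cannot be told apart. The dose and duration of LPS, the way the knockout was made and whether the knockout cells came from a single clone are not stated in the labels.

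Mfp2, the multifunctional protein type 2, is the product of Hsd17b4. It carries out the hydration and dehydrogenation steps of peroxisomal beta-oxidation, the pathway that shortens very long-chain and branched fatty acids. In macrophages LPS is sensed by the receptor complex of Tlr4, Cd14 and Ly96, which turns on inflammatory cytokine genes through NF-kB and interferon beta through the adaptor encoded by Ticam1. Secreted interferon beta then induces a broad set of interferon-stimulated genes.

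With LPS, the knockout array had 300 genes at 2-fold or more above the wild type, which is 1.69% of the 17749 genes compared, and 815 genes at 2-fold or more below it, which is 4.59%. A level is the log2 spot signal minus the 75th percentile of its array, a difference is knockout minus wild type on that scale, and a gene entered the comparison when either array had its probe well above background. Of these genes, 16114 were above background on both arrays, with a median difference of 0.02, and 83.7% of them lay within 0.5 of 0. For the other 1635 the dim side is only a bound, written as "at least". Of the genes past 2-fold, 73.1% were lower in the knockout; centring on the array median instead moved the median of measured genes by 0.18 and gave 480 higher and 632 lower genes, with 56.8% lower. Untreated, 512 of 18190 genes were higher in the knockout (2.81%) and 701 were lower (3.85%). At shares this small, a count of 0 past 2-fold in a short gene list lies close to that of all genes.

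The probe for Hsd17b4 showed a lower but present signal in the knockout. Its level was 2.60 in wild type with LPS and 1.39 in knockout with LPS, against 3.06 and 2.17 in the untreated pair. Both knockout arrays were thus below both wild-type arrays, by 1.21 (2.31-fold) with LPS and by 0.89 untreated. The array holds 1 probe for the gene, and where the deletion lies relative to that probe is not stated in the labels, so this is a check of transcript level and not of the lesion. Markers of the line were present: of 10 macrophage markers 9 were above background with LPS. None of those 9 differed by 2-fold, among them Lyz2 (-0.09), Cd68 (-0.14), Cd14 (0.11) and Csf1r (-0.68). Adgre1 differed most, by 0.76, and Csf1r was past 2-fold with normexp background correction (-1.03). The list median was -0.09 and turned positive under median centring. Markers of other cell types were mostly at background: 6 of 8 dendritic cell, 5 of 8 neutrophil, 5 of 9 T and NK cell, 5 of 7 B cell, 6 of 7 fibroblast and 6 of 7 epithelial markers were below it on both LPS arrays. The 4 T and NK cell markers compared were Cd3e (-0.03), Cd3d (-0.20), Cd4 (0.11) and Lck (0.47, with -0.17 on its other probe). The dendritic cell marker Siglech was well above background, at 5.44 in wild type and 5.65 in knockout with LPS.

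Several secreted mediators of the LPS response were higher in the knockout. Of 18 inflammatory cytokines compared, 6 were 2-fold or more higher and 0 were lower, with a list median of 0.67 against 0.01 for all genes. Of 7 formyl receptor and acute-phase genes compared, 5 were 2-fold or more higher and 0 lower, with a median of 1.20. In the untreated pair the medians of these lists were -0.04 and 0.12.

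**Figure D1:**
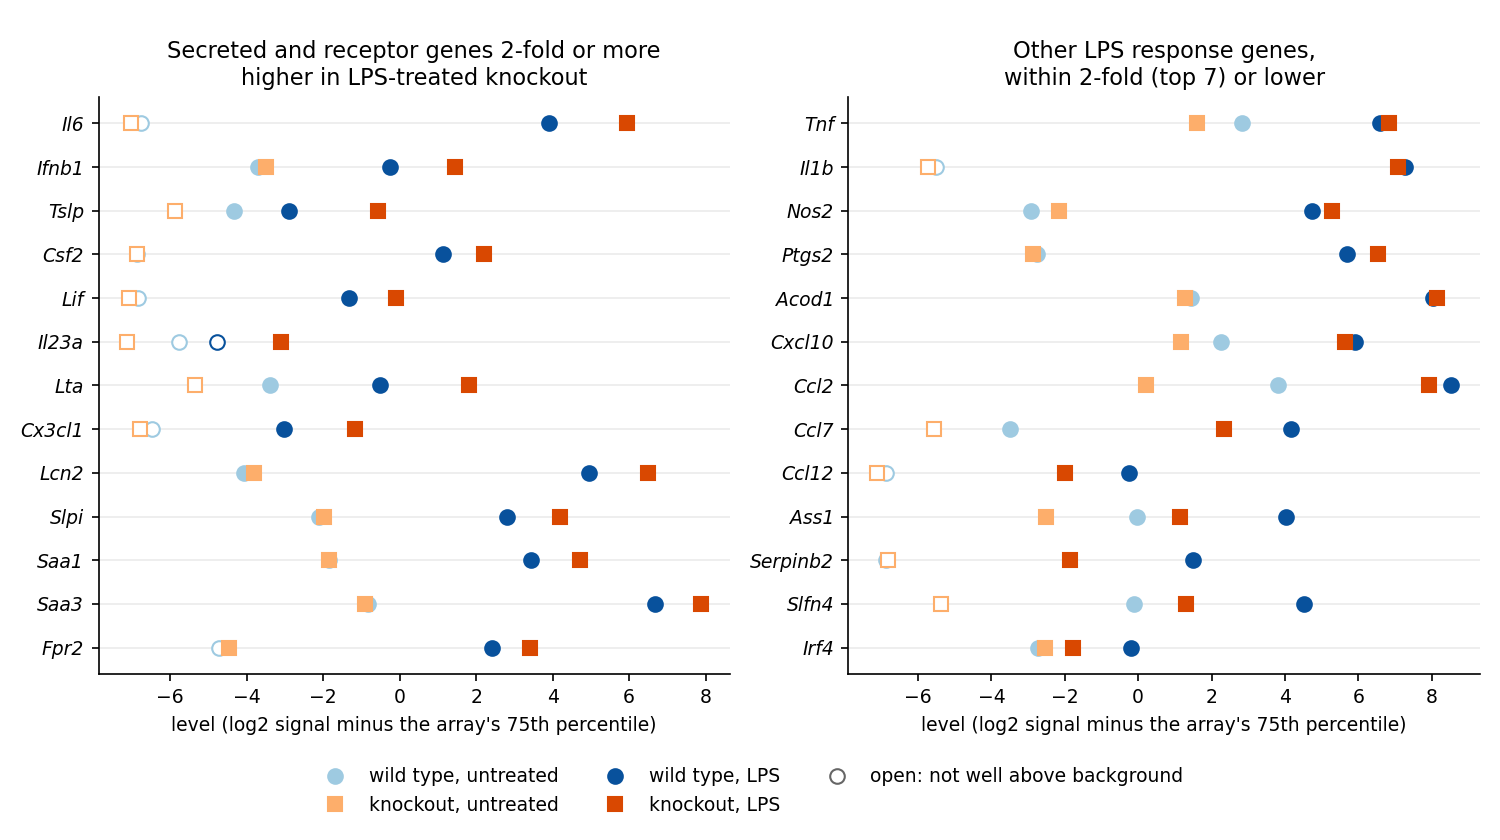
Levels of 26 LPS response genes on the 4 arrays (x axis, log2 signal minus the 75th percentile of the array; circles wild type, squares knockout; open symbols are not well above background; 1 array per group, so there are no error bars). The 13 genes of the left panel were chosen as 2-fold or more higher in the LPS-treated knockout. By that choice the LPS-treated knockout lies to the right of the LPS-treated wild type there, by 2.04 for Il6. For Tnf and Il1b in the right panel the symbols of the LPS-treated arrays overlap.

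Il6, the cytokine that drives the hepatic acute-phase response, was not above background on either untreated array and had a level of 3.91 in wild type and 5.96 in knockout with LPS. The difference of 2.04 is 4.12-fold, and a further Il6 probe gave 2.13. The Il6 probe lies at chr5:30346367-30346426 in mm9, the build of the array files. Ifnb1, which encodes interferon beta, stood at -0.26 in wild type and 1.45 in knockout with LPS, a difference of 1.71, against -3.71 and -3.49 in untreated cells. Tslp, a cytokine best known from epithelial cells, was higher by 2.32. Csf2, which encodes GM-CSF, was higher by 1.07, and Lif, a member of the IL-6 family, by 1.22. Il23a, the p19 subunit of IL-23, was above background only in the LPS-treated knockout and was at least 2.55-fold higher there, although its difference with normexp background correction was 0.65. Outside these lists, the chemokine gene Cx3cl1, fractalkine, was higher by 1.85 (1.16 with normexp). In the TNF superfamily 1 of 18 compared was 2-fold higher, the lymphotoxin gene Lta (2.31), and 3 were lower, namely Tnfsf12 (a bound of -2.65), Tnfsf8 (-2.28) and Tnfsf15 (-2.10).

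Other hallmark cytokines lay within 2-fold. Tnf differed by 0.26 (6.59 in wild type and 6.85 in knockout), Il1b by -0.17 and Csf3, which encodes G-CSF, by 0.68. On 2 further probes Il1b gave -0.80 and -0.28. Tnf differed by -1.23 untreated, so its gap between genotypes was smaller on the LPS arrays. Il10 and Il12b were not above background on any of the 4 arrays. Past 2-fold were thus 6 members of the list, and Tnf and Il1b, both early products of LPS signalling, were not among them.

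In the acute-phase list all 7 genes compared lay above 0. Lcn2, an iron-siderophore binding protein, was at 4.95 in wild type and 6.48 in knockout with LPS, a difference of 1.54 that a further probe gave as 1.68. Slpi, an inhibitor of neutrophil proteases, was higher by 1.39, although its other probe gave only 0.08. Saa1 and Saa3, the serum amyloid A genes, were higher by 1.27 and 1.20, and Fpr2, a receptor for formyl peptides and serum amyloid A, by 1.01, which fell to 0.97 under quantile normalization. Fpr1 (0.88) and the histamine-forming enzyme Hdc (0.80) lay on the same side below 2-fold. In the untreated pair Hdc was past 2-fold (-3.27 in wild type and -1.27 in knockout); the differences of Lcn2, Slpi, Saa1 and Saa3 there lay between -0.08 and 0.26.

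The promoters of the 11 cytokine and acute-phase genes that were 2-fold higher were searched for the letters of sites that inflammatory transcription factors are known to bind, to show what lies before these genes. RefSeq promoters of GRCm38.p6 were in hand for 9 of the 11, and the 250 bases before each gene start were read on both strands. The C/EBP pattern TTGCNNAA occurred in 6 of the 9, the kappa-B consensus in 3, the AP-1 pattern TGANTCA in 2 and the interferon response pattern GAAANNGAAA in 1. Among all 10567 compared genes with a promoter in the table the C/EBP pattern occurred in 9.57%, among the higher genes in 16.0% of 194 and among the lower genes in 13.4% of 479. The kappa-B consensus occurred in 10.3%, 11.9% and 11.1% of the same promoters. These matches are descriptions of letters, and the 6 and 3 come from genes picked for their difference. The windows below show the C/EBP pattern (first 6) and the kappa-B consensus (last 3) in capitals, each written 5′ to 3′ on the strand of the gene, with up to 26 bases on either side.
Il6 C/EBP: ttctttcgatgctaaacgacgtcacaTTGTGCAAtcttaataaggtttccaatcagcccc
Csf2 C/EBP: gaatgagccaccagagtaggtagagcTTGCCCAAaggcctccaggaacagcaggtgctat
Saa1 C/EBP: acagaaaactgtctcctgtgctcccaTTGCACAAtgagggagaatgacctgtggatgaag
Saa3 C/EBP: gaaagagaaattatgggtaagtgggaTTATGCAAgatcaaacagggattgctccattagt
Lcn2 C/EBP: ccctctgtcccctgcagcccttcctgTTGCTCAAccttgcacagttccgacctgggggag
Slpi C/EBP: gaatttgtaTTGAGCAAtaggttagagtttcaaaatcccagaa
Il6 kappa-B: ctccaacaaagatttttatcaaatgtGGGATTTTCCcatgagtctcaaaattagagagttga
Ifnb1 kappa-B: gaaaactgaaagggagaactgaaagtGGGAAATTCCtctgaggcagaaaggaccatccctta
Lif kappa-B: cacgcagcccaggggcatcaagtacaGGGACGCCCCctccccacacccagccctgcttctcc

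In that order the windows lie at chr5:30012960-30013019 (plus strand), chr11:54250011-54250070 (minus), chr7:46743129-46743188 (minus), chr7:46715742-46715801 (minus), chr2:32387922-32387981 (minus), chr2:164356715-164356757 (minus), chr5:30013044-30013105 (plus), chr4:88522875-88522936 (minus) and chr11:4257364-4257425 (plus). The C/EBP matches begin 128 bases before the gene start in Il6, 145 in Csf2, 182 in Saa1, 99 in Saa3, 216 in Lcn2 and 241 in Slpi, and those of Il6, Saa3 and Slpi read TTGCNNAA on the opposite strand. The kappa-B matches begin 44 bases before the start in Il6, 116 in Ifnb1 and 178 in Lif. The matches of Il6 do not overlap each other.

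Of 19 chemokines compared, 1 was 2-fold higher (Cx3cl1) and 3 were 2-fold lower. Over all genes compared with LPS 1.69% were higher and 4.59% lower. Of 13 chemokines compared untreated, 1 was 2-fold higher and 6 were lower. Ccl7 was at 4.17 in wild type and 2.33 in knockout with LPS, lower by 1.83, Ccl12 was lower by 1.74 and Ccl6 by 1.37. Ccl2 (-0.61), Cxcl10 (-0.27), Ccl3 (0.06), Ccl4 (-0.04), Ccl5 (0.10) and Cxcl2 (0.73) lay within 2-fold. In the untreated pair the same genes spread widely, with Ccl2 at -3.60, Cxcl2 at -2.89 and Ccl4 at -2.58, so for these 3 the gap between genotypes was smaller on the LPS arrays.

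Interferon-stimulated genes lay close to 0 with LPS. Of 45 compared, 1 was 2-fold higher, 3 were 2-fold lower and 34 lay below 0, with a median of -0.22 that ranged from -0.23 to -0.04 over the scalings tried. In untreated cells 11 were 2-fold higher in the knockout and 1 lower, with a median of 0.71. Isg15, a ubiquitin-like modifier, was at 3.56 in wild type and 4.74 in knockout untreated, and at 8.23 and 8.17 with LPS. Oasl2, an oligoadenylate synthetase-like gene, differed by 2.74 untreated and by 0.16 with LPS, and Mx1, a dynamin-like antiviral GTPase, by 1.48 and by -0.42. The exceptions with LPS were Slfn4 (-3.23) and Slfn1 (-1.32), both of the Schlafen family, Ifi205 (-2.13), of the PYHIN family, and Ch25h (1.09), the cholesterol 25-hydroxylase. These 4 genes were chosen by their size, and Slfn1 and Ch25h fell below 2-fold with normexp background correction.

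**Figure D2:**
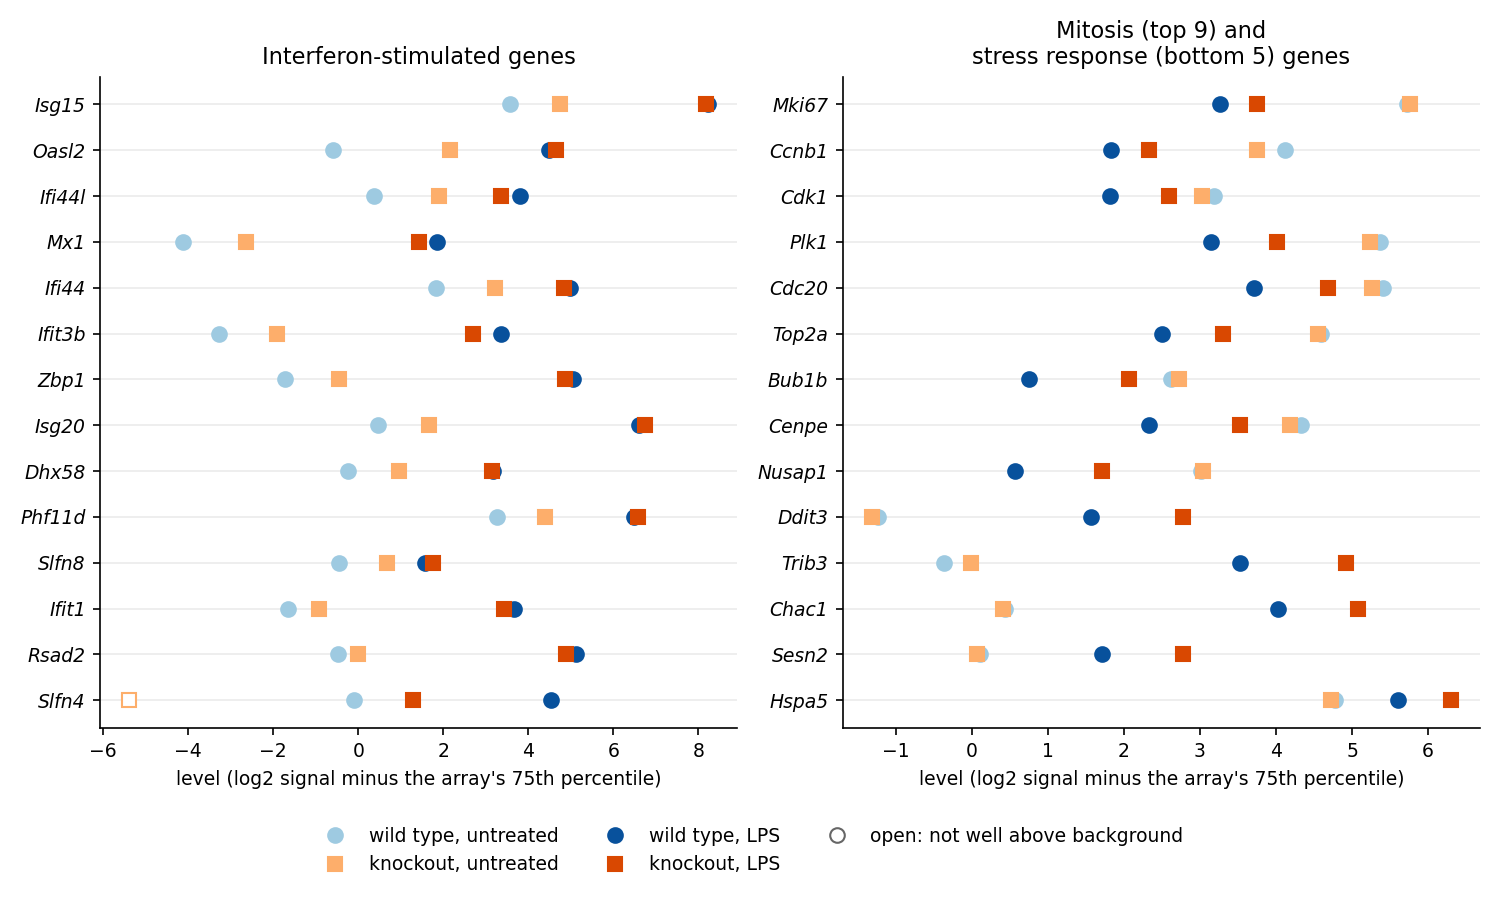
Levels of 14 interferon-stimulated genes (left) and of 9 mitosis and 5 stress response genes (right) on the 4 arrays (x axis, log2 signal minus the 75th percentile of the array; symbols as labelled, open where not well above background). For Isg15 the untreated symbols are 1.18 apart and the LPS symbols 0.06, whereas for Bub1b the untreated symbols are 0.10 apart and the LPS symbols 1.31.

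None of 12 GBP and IRG GTPases, which act against intracellular pathogens, differed by 2-fold with LPS, and their median was -0.24 against 0.84 untreated (0.59 with bounded members at their bound). None of 15 genes of MHC class I antigen presentation differed by 2-fold. Their median was -0.09 with LPS, positive under median centring, and 0.46 untreated. Over all genes compared with LPS 1.69% were 2-fold higher and 4.59% lower, so none in lists of 12 and 15 is near that share. Among 20 interferon, IRF and STAT regulators, with a median of 0.01 untreated, only Irf4 passed 2-fold, at -0.19 in wild type and -1.77 in knockout with LPS (lower by 1.58), while Irf7 (-0.01), Irf9 (0.05) and Stat2 (-0.61) lay within it.

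None of 22 genes of LPS sensing and Toll-like receptor signalling differed by 2-fold, near the share of all genes (1.69% higher and 4.59% lower). Among them were Tlr4 (0.12), Cd14 (0.11), Ly96 (0.28), Myd88 (-0.22) and Ticam1 (0.24). Ly86, which encodes MD-1, lay furthest down at -0.77. Of 27 NF-kB subunits, inhibitors and feedback genes, 1 was 2-fold higher and 1 lower. Nfkbiz, the atypical inhibitor that is needed for part of the secondary response including Il6, was at 3.05 in wild type and 4.21 in knockout with LPS (higher by 1.16, and by 1.21 on a further probe) and stood at -1.25 and -0.25 untreated. Nfkbie was lower by 1.05 (0.94 with normexp). Of 22 immediate early genes 3 were lower with LPS, namely the zinc finger genes Klf4 (-1.46), Egr2 (-1.34) and Egr3 (a bound of -1.30, but -0.44 with normexp), and the median was -0.06, positive under median centring; untreated, 8 were lower and the median was -0.81. Fosl1 was lower by 3.03 untreated and differed by 0.28 with LPS.

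All 26 genes of mitosis and chromosome segregation lay above 0 with LPS, at 0.34 to 1.31, with a median of 0.78 that ranged from 0.67 to 0.96 over the scalings tried. Of them 5 passed 2-fold (Bub1b, Cenpe, Nusap1, Cenpf and Kif11), a count that ranged from 1 to 11 over the scalings, and these 5 lay between 0.74 and 0.98 with normexp; the 20 nearest spots of Cenpf had a median difference of 0.32. Untreated, 0 of 26 passed and the median was -0.12. The genes were lower on both LPS arrays than on their untreated arrays, and less so in the knockout: Bub1b, a spindle checkpoint kinase, was at 2.62 and 2.72 untreated and at 0.76 in wild type and 2.07 in knockout with LPS. Cenpe, a kinetochore motor, was at 4.33 and 4.18 untreated and at 2.33 and 3.53 with LPS. Plk1 (0.86), Cdk1 (0.78) and Mki67 (0.48) lay on the same side. Of 26 genes of DNA replication compared 0 were higher and 3 were 2-fold lower, and all of these 3 act at entry into S phase: Ccnd1, cyclin D1 (-1.73), Ccne1, cyclin E1 (-1.07), and E2f1 (-1.01). Ccne1 and E2f1 fell short of 2-fold under some scalings, while Ccnd1 stayed past it under all 6 scalings and probe choices, with a level of 4.73 in wild type with LPS. The Mcm2 to Mcm7 helicase genes lay between -0.65 (Mcm6) and 0.21.

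Of 22 genes of the unfolded protein and integrated stress responses compared, 21 lay above 0, 4 were 2-fold higher and 0 lower, with a median of 0.59 against 0.03 untreated. Trib3, a pseudokinase induced by Atf4, was at 3.52 in wild type and 4.92 in knockout with LPS (higher by 1.39). Ddit3, which encodes CHOP, was higher by 1.21, with 0.26 on its other probe. Chac1, a glutathione-degrading enzyme, was higher by 1.05 and Sesn2 by 1.07, and both were just under 2-fold with the deposited table, Chac1 at 0.99. Atf4 (0.63), the chaperone gene Hspa5 (0.70) and the serine synthesis gene Phgdh (0.64) lay on the same side below 2-fold, and Xbp1 was at -0.16. Of 12 heat shock protein genes 0 passed 2-fold and their median was 0.11.

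**Figure D3:**
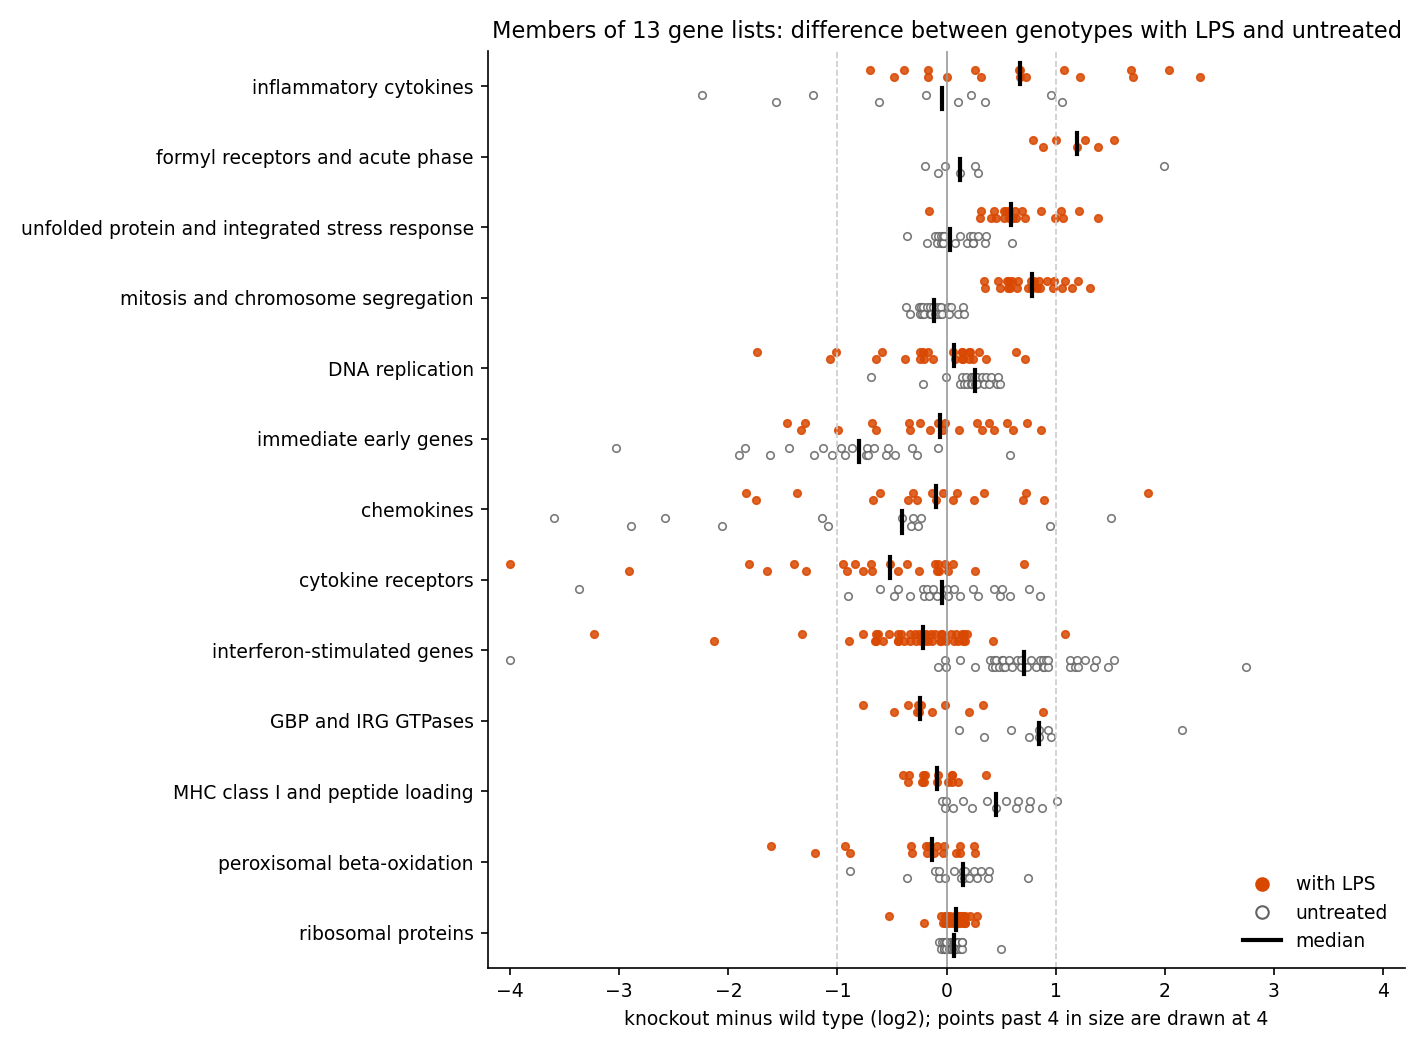
Difference between knockout and wild type (x axis, log2) for the members of 13 gene lists (rows), with LPS (filled) and untreated (open); bars are medians, and dashed lines mark 2-fold. Members above background on either array of the pair are drawn, and points past 4 in size are drawn at 4. The mitosis list lies wholly above 0 with LPS (median 0.78) and around 0 untreated (-0.12), and the interferon-stimulated genes lie mostly below 0 with LPS (-0.22) and mostly above it untreated (0.71).

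Of 25 cytokine receptor genes compared, 0 were 2-fold higher, 5 were lower and 21 lay below 0, with a median of -0.52 (-0.45 with bounded members at their bound). Il7r, the alpha chain of the interleukin 7 receptor, was at 0.08 in wild type and -4.05 in knockout with LPS and was low in the untreated knockout too (-3.37). Csf2rb2 (-1.64) and Csf2rb (-1.29), which encode beta chains of the receptors for IL-3 and GM-CSF, were lower with LPS and lay at 0.29 and 0.43 untreated; 2 further probes of Csf2rb gave -1.42 and -0.03. Il4ra was lower by 1.40, with -0.35 on its other probe and -0.84 with normexp, and Ccr2, the receptor for Ccl2, had a bound of 2.60-fold lower but a difference of -0.55 with normexp. Csf1r, the receptor for M-CSF, lay at -0.68 (-1.03 with normexp).

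Of 12 genes of macrophage fusion and osteoclast formation compared, 4 were 2-fold lower and 1 higher. Ocstamp and Dcstamp, which encode membrane proteins required for cell fusion, were lower by 3.30 and 1.56, Atp6v0d2, a subunit of the vacuolar ATPase, by 1.34, and Nfatc1, the master transcription factor of the lineage, by 1.33 (-0.50 on its other probe). Ctsk, the collagen-degrading cathepsin K, was higher by 1.08. Untreated, 3 members were higher and 3 lower, among them Ctsk (1.86), Ocstamp (-2.75) and Dcstamp (-1.28). Of 14 genes of proteases, inhibitors and matrix compared, 3 were 2-fold higher and 4 lower. Serpinb2, an inhibitor of urokinase, was not above background untreated and was lower by 3.35 with LPS, at -1.85 in knockout, and Plau, which encodes urokinase, was lower by 2.29. The metalloproteinase genes Mmp12 and Adamts1 were lower by 1.11 and 1.34 (-0.39 and -0.60 with normexp). The stromelysin and collagenase genes Mmp3 and Mmp13 were higher by 1.37 and 1.55 (1.01 and 1.11 with normexp).

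Of 9 genes of nitric oxide and arginine metabolism compared, 0 were 2-fold higher and 2 lower. Nos2, the inducible nitric oxide synthase, was at 4.73 in wild type and 5.29 in knockout with LPS, a difference of 0.55, and Acod1, which makes itaconate, differed by 0.12. Ass1, which regenerates arginine from citrulline, was at 4.03 in wild type and 1.15 in knockout with LPS, lower by 2.89, and was lower by 2.50 untreated. Slc7a2, an arginine transporter, was lower by a bound of -1.66, but its difference was -0.64 with normexp. Ptgs2, the inducible cyclooxygenase, differed by 0.84, which passed 2-fold only under median centring. The prostaglandin E2 receptor gene Ptger2 was higher by 1.78 (0.97 with normexp).

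In the pathway of Mfp2 itself, 0 of 18 peroxisomal beta-oxidation genes were 2-fold higher with LPS and Hsd17b4 was among those lower, with a list median of -0.14 that turned to 0.04 under median centring. The thiolase genes Acaa1a and Acaa1b were lower by 0.88 and 0.93 with LPS, and differed by 0.15 and 0.07 untreated. Ehhadh, which encodes the other bifunctional enzyme, was not above background. Of 23 genes of peroxisome biogenesis and antioxidants 1 was lower, the membrane protein gene Pxmp2 (-1.25, and -0.69 with normexp). None of 17 mitochondrial beta-oxidation genes, of 23 cholesterol synthesis genes, of 27 genes of the citrate cycle and respiratory chain or of 7 other 17-beta-hydroxysteroid dehydrogenases passed 2-fold. Among fatty acid genes Scd1, the delta-9 desaturase, was lower by 1.17. Fads3, Me1 and Elovl3 were higher by 1.63, 1.02 and 1.01, and Elovl3 was at 0.65 with normexp. Untreated, the differences were -0.11 for Scd1, 1.85 for Fads3, 0.54 for Me1 and -0.22 for Elovl3. The iron exporter gene Slc40a1 was higher by 1.75, with 1.35 untreated.

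Among the largest differences with LPS were losses that the untreated pair showed as well. Ly6c2 and Ly6c1, monocyte surface antigens, were at 5.86 and 5.84 in wild type and not above background in knockout with LPS, which is at least 1364-fold and at least 1341-fold lower, and the untreated difference was -9.29 for Ly6c2 and at least as low as -10.68 for Ly6c1. The probes of these genes share 57 of 60 bases in order, so their signals cannot be assigned to one gene or the other. Hspb7, a small heat shock protein, was at 4.94 in wild type and -3.20 in knockout with LPS (lower by 8.14, and by 6.23 untreated). Tbx21, which encodes the transcription factor T-bet, was at least 95.8-fold lower, Steap1, a metalloreductase, at least 75.6-fold, and the actin-binding Avil at least 40.9-fold. The membrane protein gene Emp2 (-4.94), the RNA-binding protein gene Igf2bp3 (-4.79), Pgap4 (-4.04), Fhit (-3.85), Aldh1l1, a folate enzyme (-3.65), and Cd36, a scavenger receptor and fatty acid transporter (-3.57), differed by nearly as much untreated (-5.09, -4.96, -4.02, -3.83, -3.73 and -3.37). These genes were picked for the size of their difference with LPS, so the gap between the LPS arrays follows from the choice. Mettl7a2 (-4.78) and Ano10 (-3.93) were also among the largest with LPS but differed by -0.05 and 0.06 untreated. With normexp the differences of Igf2bp3, Pgap4, Fhit and Aldh1l1 were smaller (-3.03, -2.60, -2.15 and -2.22), as were those of Il7r (-2.61) and Avil (-3.37).

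**Figure D4:**
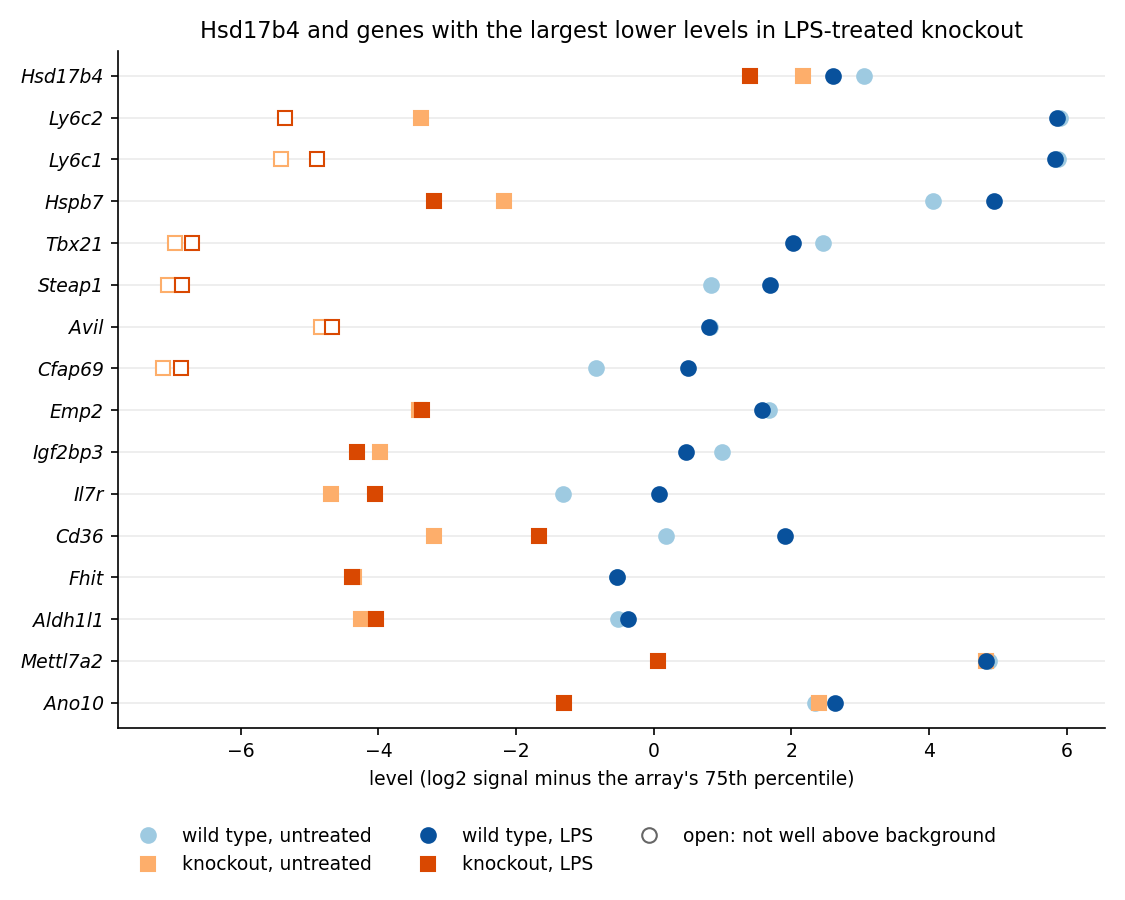
Levels of Hsd17b4 and of 15 genes with large lower values in LPS-treated knockout on the 4 arrays (x axis, log2 signal minus the 75th percentile of the array; circles wild type, squares knockout, open where not well above background). By that choice all 15 lie far left on the LPS-treated knockout array. For 13 of the 15 the untreated knockout lies far left as well. Hspb7 is at -3.20 against 4.94 with LPS and at -2.18 against 4.06 untreated. Mettl7a2 and Ano10 are low only on the LPS-treated knockout array.

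Among genes that were higher, Nyap1, a neuronal PI3 kinase adaptor (3.11), the zinc finger gene Zfp979 (2.99), the immune receptor gene Trem3 (2.81), the scavenger receptor gene Scarf1 (2.49) and Stc2, stanniocalcin 2 (2.46), led the list; Nyap1 was at 1.75 with normexp. Their untreated differences were 2.63, 3.09, 2.57, 2.20 and 2.36. Tmem176b, at 4.72 in wild type and 6.20 in knockout with LPS, was higher by 1.47 with LPS and by 1.49 untreated. Aqp9, a glycerol and water channel, was not above background untreated and was at -1.87 in wild type and 0.19 in knockout with LPS (2.06, with 0.44 on its other probe). The B cell antigen receptor component Cd79b was also higher by 2.38, from -4.15 to -1.77, near background, and by 1.13 with normexp. The B cell markers Cd79a and Blk were not above background. Pax5 was lower, by a bound of -1.12, but its difference was -0.405 with normexp.

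Over the 16650 genes compared in both conditions, 204 were 2-fold higher with LPS and 320 untreated, and 90 were in both, which is 44.1% of the former and 28.1% of the latter. For lower genes the numbers were 606 and 498, with 225 in both (37.1% and 45.2%). By comparison, 1.92% of these genes were higher and 2.99% were lower untreated. Over 15516 genes measured on all 4 arrays the LPS and untreated differences, which share no array, had a Pearson correlation of 0.45 and a Spearman correlation of 0.29; genes are not independent points and the probes are the same. Of 151 higher and 408 lower genes measured on all 4 arrays, 40 and 129 lay within 0.3 of 0 untreated. Whether a gene's difference with LPS exceeds its untreated difference was not tested.

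**Figure D5:**
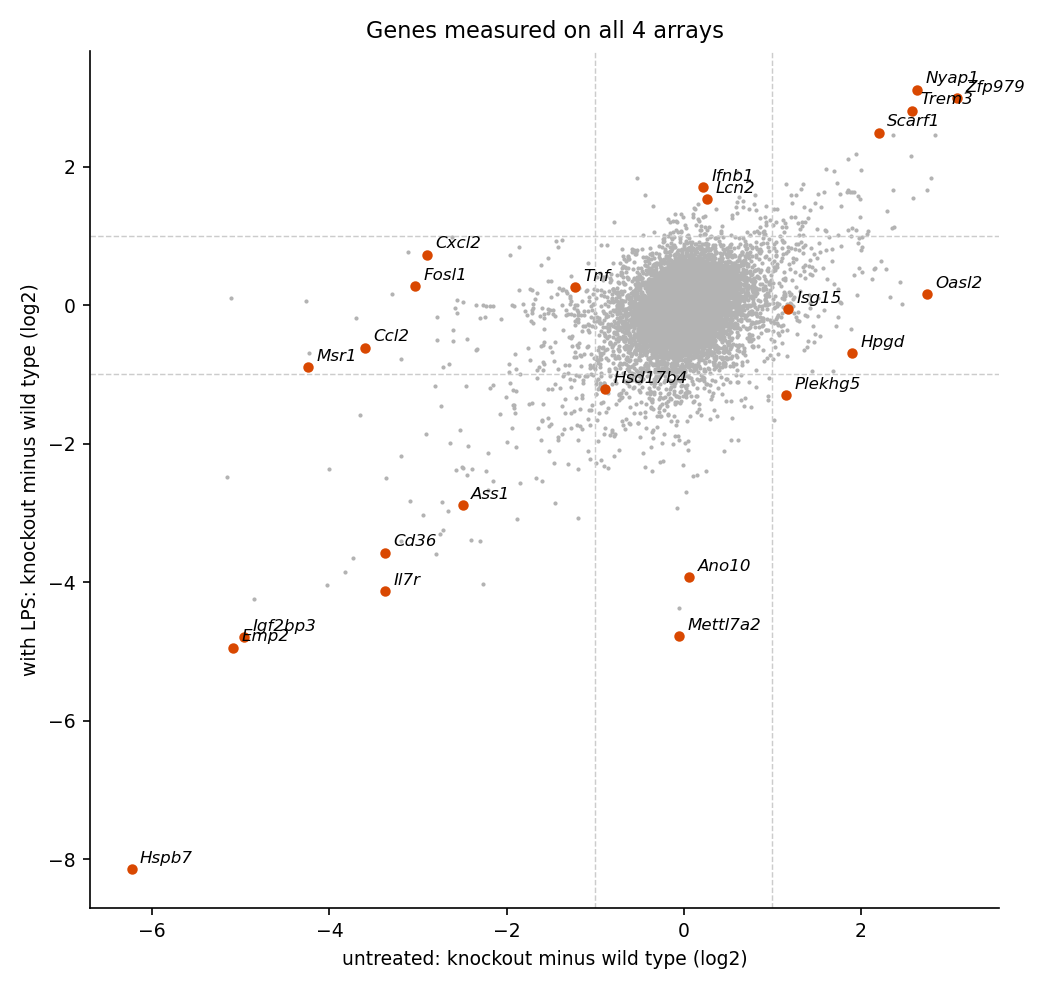
Difference between knockout and wild type with LPS (y axis, log2) against untreated (x axis, log2) for 15516 genes measured on all 4 arrays, 1 point per gene; dashed lines mark 2-fold and some genes are named. Cd36 and Trem3 lie near the diagonal, and Hspb7 is low on both axes (-8.14 with LPS, -6.23 untreated). Ifnb1 (1.71 with LPS, 0.22 untreated) and Lcn2 differ mainly on the y axis, and Ccl2, Msr1 and Oasl2 on the x axis mainly.

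Some low values on the LPS-treated knockout array lay in patches of low spots. Replicate spots of 1 probe had a median SD of 0.08 on that array against 0.04 to 0.05 on the other 3, and 202 of its spots lay more than 1 below all 3 other arrays where those agreed within 0.7, against 33 to 93 on the others. For each spot the median difference of its 20 nearest spots was taken: it was -0.3 or below for 267 genes compared, 51 of them among the 815 lower genes, and without genes past 0.3 in size 296 were higher and 764 lower. Mettl7a2 (4.84 in wild type and 0.06 in knockout with LPS, 4.87 and 4.82 untreated) has nearest spots at -0.58, and Ano10 (2.63 and -1.30, with -0.11 on its other probe) at -1.87. Ndst1 has nearest spots at -0.39, and was also lower untreated (-4.86). For the 13 genes in the left panel of the plot of LPS response genes the nearest spots lay between -0.07 and 0.16. Where a called gene had another measured probe, the median of its other probes lay on the same side for 39 of 44 higher and 95 of 100 lower genes, and passed 2-fold for 24 and 38 of them.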

How the data were processed

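Total RNA of 4 RAW264.7 samples, 1 per group, was hybridised to 1-colour Agilent arrays of design 074809, all on 1 slide. Per the file headers, Agilent Feature Extraction 10.7.1.1 gave the deposited processed intensity of each spot, background subtracted and detrended within the array, together with mean and background intensity and flags of 0 or 1. The submitters' processing notes name version 9.5.1.1 of the same software. The deposited series table holds linear intensity values whose log2 matched quantile normalization of the processed signals within 0.05 for 99.5% to 100.0% of probes. Its normalization is not stated in the sources used here.

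Control spots were left out, spots of 1 probe were averaged, and log2 signal minus the 75th percentile of the array gave the level. Array 75th percentiles were 463 to 567 intensity units, 47.4% to 49.7% of spots were well above background and 0 were saturated. With 1 array per group the number of arrays limits the precision, and no test was run. A gene was represented by 1 probe and was past the threshold at 2-fold, on measured values or, where only 1 array was well above background, on a bound, with the dim array at the higher of its own signal and its lowest signal well above background. Probes were named through accession (58.3%), symbol or older symbol (18.1% and 0.919%) in RefSeq tables, and otherwise kept the name in the files (22.7%). The comparison and its 53 gene lists (951 genes on the array) were chosen with earlier results of these data known. Genes named are the target and key genes, the 15 largest measured differences in each direction that passed 2-fold also with normexp and quantile normalization, the 6 largest bounds, up to 6 list members past 2-fold (otherwise up to 3), and up to 12 genes opposite in the 2 conditions; other genes were named as members of a described list, and some genes that meet these rules are not reported here. Alternatives were normexp (limma 3.58.1 in R 4.3.3, offset 50), quantile, median and spike-in centring, other filters and thresholds, all probes of a gene, the series table and leaving out genes beside displaced spots. Python 3.11.15 was used, and the rule was tested on simulated data.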

Additional observations from a re-analysis of the deposited data

Results flagged for a closer look

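Of the genes compared in both conditions, 8 were 2-fold or more higher in the knockout with LPS and 2-fold or more lower untreated, and 10 were the opposite. The 12 with the largest smaller difference are given here. The difference between conditions was not tested, since each group is 1 array. Lta, lymphotoxin alpha, was higher by 2.31 with LPS and lower untreated, by a bound of -1.41. Plekhg5 differed by -1.30 with LPS (0.04 in wild type and -1.26 in knockout) and by 1.16 untreated (1.65 and 2.81), and it was the only one of the 12 above background on all 4 arrays. Hsh2d, a haematopoietic SH2 adaptor, had a bound of -1.59 with LPS and of 2.49 untreated, and the homeobox gene Dlx1 a bound of 1.80 with LPS and a difference of -2.17 untreated.

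The remaining 8 were uncharacterised transcripts. With LPS the value was -2.53 for D430018E03Rik, -2.22 for 4930448N21Rik, -1.44 for 4930557K07Rik, 1.80 for ENSMUST00000190944 and 1.44 for Gm10846. It was 1.95, 1.18 and 1.44 for 3 transcripts that the array lists by position alone, on chromosomes 13, 2 and 4. All of the 12 but Plekhg5 were below the background limit on 1 array or more. D430018E03Rik also lies beside displaced spots. With normexp the LPS difference was under 2-fold for Hsh2d (-0.71), Gm10846 (0.73), 4930557K07Rik (-0.94), Plekhg5 (-0.998) and the transcript on chromosome 2 (0.91). It was -1.17 for D430018E03Rik, -1.16 for 4930448N21Rik and 1.08 for ENSMUST00000190944.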

How the results depend on the processing

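With LPS 300 genes were higher and 815 lower, untreated 512 and 701, and in both conditions 90 and 225. With normexp these numbers were 118 and 330, 190 and 305, and 37 and 113. Without any filter on dim spots they were 1324 and 2334, 1647 and 2152, and 264 and 586. At 1.5-fold they were 994 and 1807, 1215 and 1382, and 261 and 482, and at 4-fold 36 and 177, 76 and 206, and 8 and 72. With both arrays required above background, 184 were higher and 479 lower with LPS, 300 and 363 untreated, and 118 were lower in both. Median centring gave 480 higher with LPS. Quantile normalization, spike-in centring, all probes of a gene, the series table and leaving out genes beside displaced spots (chosen after seeing the data) stayed within 1.5 times. Of 153 named genes past 2-fold 0 changed direction, while a few of those near 0 did; of the 153, 54 fell short under at least 1 alternative, and 43 values of these did so with normexp. No paired analysis was possible because each group is 1 array. Genes near background have only bounds, which limits what their differences show.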

Other observations

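Genes on chromosome 13 had a slightly lower median difference than those of other chromosomes, in both conditions. The 605 genes measured there with LPS had a median difference of -0.17, and the median untreated was -0.16, whereas the medians of the other 19 chromosomes lay between -0.01 and 0.07 with LPS and between 0.01 and 0.05 untreated. Of the 605, 31 were 2-fold lower (5.12%) and 2 were higher with LPS; on the other chromosomes 2.33% to 3.66% of measured genes were 2-fold lower. These are descriptions over genes of 1 array per group, chosen after the values were seen, and the cause was not tested.

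Among Fc, Trem and complement receptors, which sense antibody complexes and complement fragments, 4 of 18 compared were 2-fold higher with LPS and 0 were lower. Untreated, 4 of 18 were higher and 0 lower as well. Over all genes compared with LPS 1.69% were 2-fold higher and 4.59% lower. The list median with LPS was 0.12, and -0.07 with the mean of all probes of a gene. Treml4 was higher by 1.97 (1.08 with normexp), the inhibitory Fc receptor gene Fcgr2b by 1.43, Trem1 by 1.24 and the C5a receptor gene C5ar1 by 1.14 (0.95 with normexp). Among iron genes 4 of 13 were higher and 0 lower, namely Slc40a1, Lcn2, the ferroxidase gene Cp (1.54) and Hamp, which encodes hepcidin and was above background only in the LPS-treated knockout (a bound of 1.20, but 0.56 with normexp). None of 29 ribosomal protein genes passed 2-fold, with a median of 0.09.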
